A study of Mus musculus with 6 samples.

Results

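Tcf7, Lef1, Foxp1, Satb1, Foxo1, Klf2, S1pr1, Ccr7 and Dapl1 are 9 genes that naive and resting T cells use to hold their state and to move between blood and lymphoid tissue. They were taken by symbol from the gene list of the series, where each matched a single entry, 9 of 32285 genes in all. RNA was measured cell by cell, in droplets, in the CD45+ (hematopoietic) cells of B16-F10 tumors, a transplanted mouse melanoma, in female C57BL/6 mice that were 6 to 10 weeks old when the tumor cells were injected. The αPD-1 group (3 samples) was given αPD-1 antibody from day 7 (150 μg, 3 doses a week) and the vehicle of corin. The αPD-1 + corin group (3 samples) received the same antibody and 200 μg of corin, an inhibitor of the CoREST repressor complex, by daily intraperitoneal injection from day 6. Every mouse therefore carried the tumor and the antibody, and each arm had 10 mice. The labels do not tie the samples to mice, so p-values measure the spread between these samples, some of which may be technical.

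Naive T cells circulate between blood and lymph nodes until they meet antigen. TCF-1 (encoded by Tcf7) and LEF-1 are related DNA-binding proteins that work with β-catenin and Groucho-type corepressors, and they are kept in naive, memory and stem-like T cells. FOXO1 is a forkhead factor held in the nucleus while growth factor signalling is low, where it promotes KLF2, and KLF2 in turn promotes S1PR1, the receptor that guides cells out of lymphoid tissue along sphingosine-1-phosphate. CCR7 binds the lymph node chemokines CCL19 and CCL21. FOXP1, another forkhead factor, helps to keep naive T cells quiescent, SATB1 organizes chromatin loops in T cells, and Dapl1 encodes a small protein that marks naive and memory-like T cells. Several of these genes are also used outside T cells, Foxp1, Klf2 and Foxo1 in B cells and Ccr7 in mature dendritic cells (DCs).

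The samples held between 52281422 and 84276739 UMIs (unique molecular identifiers, each 1 captured RNA molecule) and left between 3663 and 7860 cells each after filtering, 28865 of 52899 barcodes. Any pair of samples shared between 10 and 32 barcodes, at most 0.457% of the smaller sample. Cells were clustered without the 9 genes and without the marker genes. CD8 T, CD4 T and Foxp3+ T cells were then picked from the T cells by UMIs of Cd8a, Cd8b1, Cd4 and Foxp3. T cells with none of these UMIs, or with CD8 UMIs beside those of Cd4 or Foxp3, were in none of the 3 classes. With αPD-1 the classes held 37.0% to 46.0%, 10.5% to 12.6% and 4.31% to 5.24% of the T cells. With αPD-1 + corin they held 41.6% to 70.4%, 2.71% to 8.48% and 1.18% to 17.3%. The summed level of 10 T cell markers in T cells was between 4533 and 4702 CPM (a gene's UMIs per 1000000 UMIs of the cells summed in a sample) with αPD-1 and between 4324 and 4722 CPM with αPD-1 + corin, with none of the markers at 0. NK cells had between 5925 and 8488 CPM of 10 NK markers, beside between 818 and 2329 CPM of the T cell markers, so NK cells and T cells were not fully separated. B cells had between 7973 and 11546 CPM of 10 B cell markers. T cells numbered 741, 766 and 553 in αPD-1 replicates 1 to 3 and 154, 283 and 1106 in αPD-1 + corin replicates 1 to 3. CD4 T cells were few with αPD-1 + corin (13, 24 and 30), as were Foxp3+ T cells (15, 49 and 13).

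The genes lie on 6 chromosomes. On GRCm39, Tcf7 spans positions 52143107 to 52174619 of chromosome 11 on the minus strand, and Ccr7 spans 99035022 to 99045911 of the same chromosome and strand. Lef1 (130903919 to 131018005, plus strand), Foxo1 (52175757 to 52260642, plus strand) and S1pr1 (115504071 to 115508721, minus strand) are on chromosome 3. Foxp1 is on chromosome 6 from 98902299 to 99499685 (minus strand), Satb1 on chromosome 17 from 52043114 to 52140622 (minus strand), Klf2 on chromosome 8 from 73072726 to 73075502 (plus strand) and Dapl1 on chromosome 2 from 59314997 to 59335368 (plus strand). All 9 are protein coding. The 250 bases before the start are printed for Klf2, the factor that was lower in each T cell class tested below, and for Dapl1, whose highest means were in CD4 T and CD8 T cells. They are from RefSeq on GRCm38.p6, at chr8:72318812-72319061 and chr2:59484403-59484652, both on the plus strand, and capitals mark a forkhead motif.
Klf2: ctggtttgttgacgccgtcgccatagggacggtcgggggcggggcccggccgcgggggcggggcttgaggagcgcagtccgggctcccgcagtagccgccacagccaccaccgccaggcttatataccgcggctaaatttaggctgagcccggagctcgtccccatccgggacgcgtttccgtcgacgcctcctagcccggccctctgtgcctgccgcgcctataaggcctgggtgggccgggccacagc
Dapl1: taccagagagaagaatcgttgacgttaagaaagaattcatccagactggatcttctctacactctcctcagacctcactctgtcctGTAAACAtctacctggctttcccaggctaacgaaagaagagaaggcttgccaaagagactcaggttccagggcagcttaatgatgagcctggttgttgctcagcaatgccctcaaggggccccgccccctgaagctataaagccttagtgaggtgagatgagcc
The Klf2 window was 71.2% G and C and held none of the motifs searched. The Dapl1 window was 50% G and C and held the forkhead motif GTAAACA, starting 164 bases before the start. The motifs were searched on both strands in the 250-base windows of the 7 members with an entry (S1pr1 and Ccr7 had none, and some members have several starts). GTAAACA was in 3.17% of 32851 such windows, and among the 7 members only in that of Dapl1. The TCF/LEF motif CTTTGAA (4.46% of windows) was found for Foxp1 alone, CTTTGAT (3.21%) for none, and the KLF motif CCACACCC (3.20%) and the ETS motif CCGGAAG (6.91%) for Tcf7 alone. A match describes the letters only.

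In T cells as a whole, all 9 genes were lower with αPD-1 + corin. Each of the 9 passed the test (edgeR quasi-likelihood test on UMIs summed per sample, adjusted p under 0.05 over 9672 genes), in which 12.1% of all genes tested were called lower. For none of the 9 did a sample of one group reach the range of the other, where every αPD-1 + corin sample lay below every αPD-1 sample for 22.1% of all genes tested. The median log2 fold change was -1.77 over the 9 genes and 0.0031 over all genes. A sum over T cells cannot tell fewer cells of a T cell class from less RNA of a gene per cell, and the classes were therefore taken apart below. The T cells in none of the classes are left out there. A class can still hold cells of several subclusters, whose shares of the T cells differed between the groups. The fold changes within a class therefore carry the same limit.

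In CD8 T cells, 8 of the 9 genes were lower with αPD-1 + corin and Ccr7 did not pass the test, where 4.84% of all 7956 genes tested were called lower. The groups did not overlap for 7 of the 9, all but Foxo1 and Ccr7, where every αPD-1 + corin sample lay below for 16.0% of all genes. Among CD4 T cells, 7 genes had enough UMIs to be tested and 5 of them were lower (Tcf7, Lef1, Foxp1, Satb1 and Klf2), where 4.56% of 1908 genes were. In Foxp3+ T cells, 1 of 6 genes tested, Klf2, was lower, where 0.473% of 2538 genes were. The median log2 fold change of the members tested was -2.08, -1.70 and -0.94 in the 3 classes, beside 0.017, -0.0174 and -0.0097 over all genes. Without αPD-1 + corin replicate 3, which holds 779 CD8 T cells where the other samples of its group hold 64 and 124, the count was 5 in CD8 T cells and 3 in CD4 T cells.

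**Figure D1:**
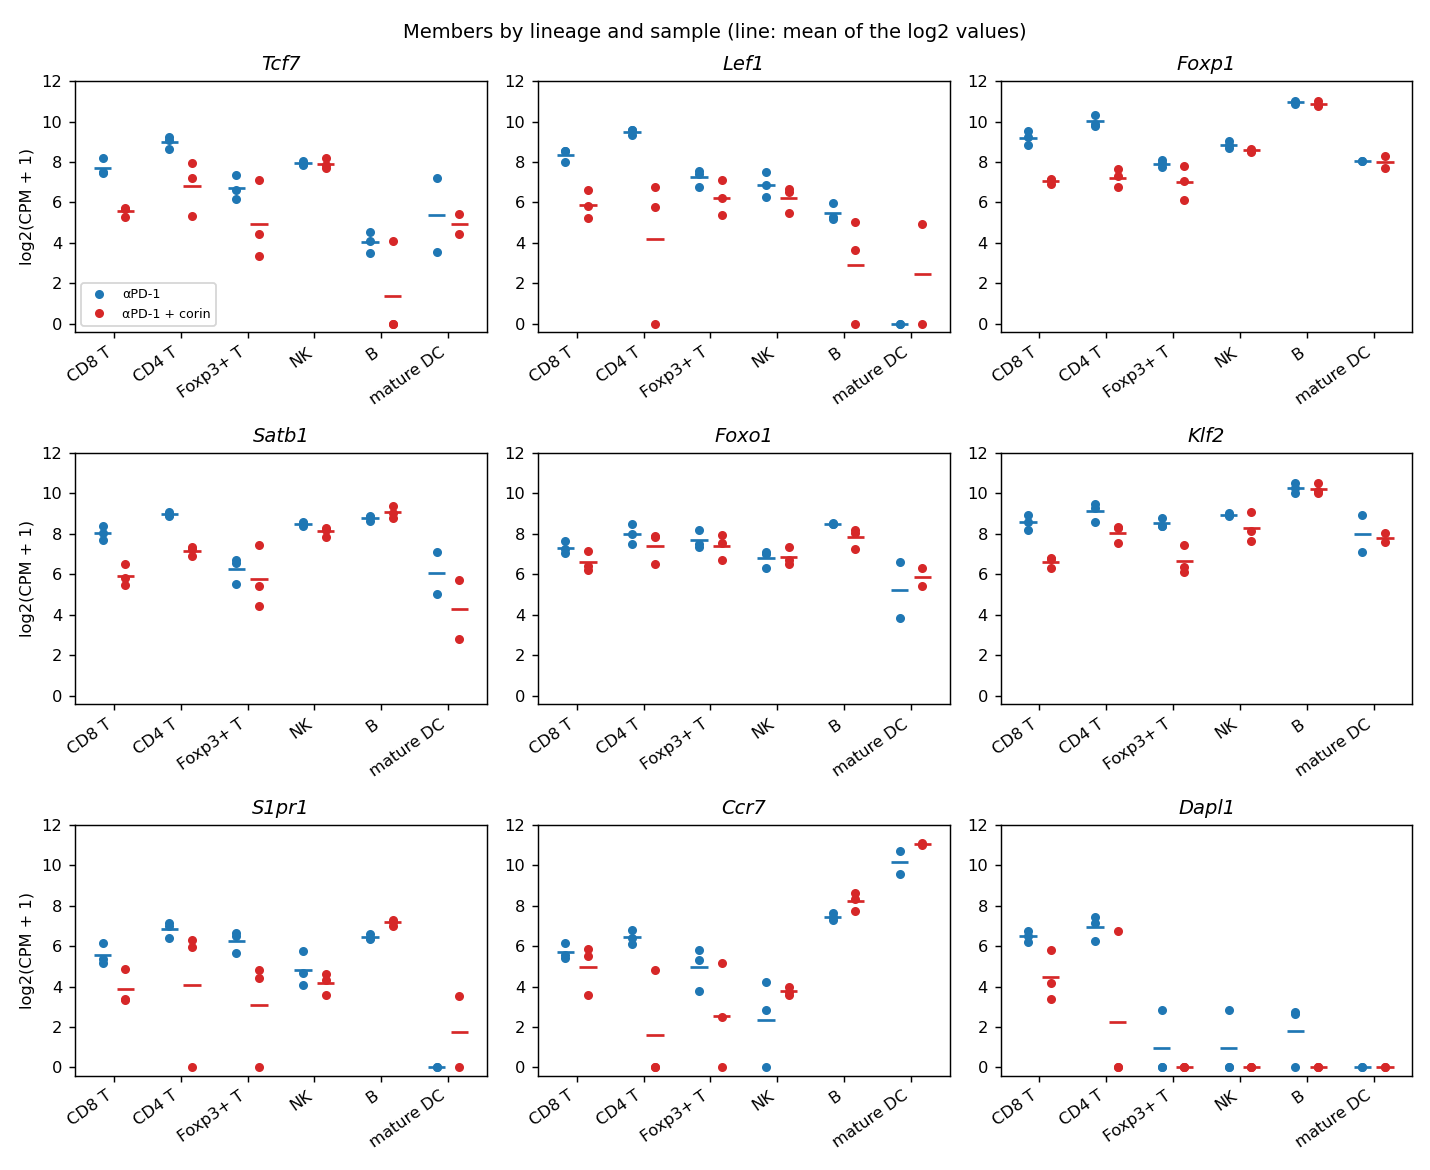
Level of each of the 9 genes on a log2(CPM + 1) axis, 1 point per sample with at least 10 cells of the lineage, αPD-1 in blue and αPD-1 + corin in red, with a line at the mean of the log2 values. In CD8 T and CD4 T cells the red points lie below the blue ones for Tcf7, Lef1, Foxp1, Satb1 and Klf2, whereas the Foxp1 points overlap in B cells and mature DCs and lie closer together, without overlap, in NK cells, and Ccr7 is highest in mature DCs.

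Of the TCF/LEF factors, Tcf7 was measured at 291, 173 and 181 CPM in CD8 T cells of αPD-1 replicates 1 to 3 and at 50.9, 51.8 and 37.4 CPM in αPD-1 + corin replicates 1 to 3. The groups did not overlap, and the log2 fold change was -2.26 (SE 0.23, adjusted p = 6.18e-05). Lef1 was at 374, 253 and 377 CPM against 96.2, 55.7 and 37.1 CPM in the same cells, a log2 fold change of -2.72 (SE 0.24, adjusted p = 3.61e-05). Lef1 had the most negative log2 fold change of the 9 in CD8 T cells and of the 7 tested in CD4 T cells. In CD4 T cells Lef1 was at 760, 754 and 635 CPM with αPD-1 and at 0, 106 and 53.9 CPM with αPD-1 + corin, where 11 Lef1 UMIs were counted in all (log2 fold change -3.49, SE 0.39, adjusted p = 9.95e-05). Tcf7 in CD4 T cells was at 595, 549 and 400 CPM against 39.1, 242 and 148 CPM, so that αPD-1 + corin replicate 1, with 13 cells, was lowest and replicate 2 was highest (log2 fold change -1.70, SE 0.34, adjusted p = 0.00793). Without αPD-1 + corin replicate 3 the Tcf7 value in CD4 T cells was -1.63 with an adjusted p of 0.0540. In Foxp3+ T cells both genes overlapped between the groups. Tcf7 there was at 163, 95.9 and 71.9 CPM against 138, 9.15 and 20.4 CPM, 7 UMIs in all with αPD-1 + corin, and the log2 fold change of -2.21 (SE 0.63, adjusted p = 0.126) did not pass the test. Without αPD-1 + corin replicate 1, the one high sample, the value was -3.25 with an adjusted p of 0.00504.

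Foxp1, the quiescence factor, was far apart between the groups in CD8 T and CD4 T cells and not in Foxp3+ T cells. In CD8 T cells it was at 727, 464 and 599 CPM with αPD-1 and at 141, 135 and 118 CPM with αPD-1 + corin (log2 fold change -2.16, SE 0.18, adjusted p = 3.12e-05), and in CD4 T cells at 1289, 946 and 891 CPM against 156, 197 and 108 CPM (log2 fold change -2.83, SE 0.31, adjusted p = 9.95e-05). In Foxp3+ T cells the Foxp1 levels overlapped, at 270, 243 and 216 CPM against 68.8, 133 and 224 CPM (log2 fold change -0.81, SE 0.31, adjusted p = 0.326). The treatment difference of Foxp1 was larger in CD8 T cells than in Foxp3+ T cells by 1.35 on the log2 scale (interaction test in edgeR with the sample as a block, SE 0.36, adjusted p = 0.0451) and larger in CD4 T cells than in Foxp3+ T cells by 2.06 (SE 0.47, adjusted p = 0.0200). It was the only member that passed either of these tests, in which 1.32% and 0.58% of all genes were called. Both calls rest on few Foxp3+ T cells, and the first was lost when any sample other than αPD-1 + corin replicate 1 was left out, the second without αPD-1 replicate 1 or 2 or αPD-1 + corin replicate 3 (0 members in each case). Between CD8 T and CD4 T cells no member passed the interaction test in edgeR, the only tool run for it, with 2 of the 9, Klf2 and Ccr7, at an unadjusted p under 0.05 and 0.149% of all genes called.

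Satb1, the chromatin organizer, was at 333, 203 and 259 CPM in CD8 T cells with αPD-1 and at 90.5, 42.8 and 55.2 CPM with αPD-1 + corin (log2 fold change -2.19, SE 0.22, adjusted p = 6.07e-05). Its CD4 T cell levels were 480, 540 and 468 CPM against 117, 152 and 162 CPM (log2 fold change -1.78, SE 0.27, adjusted p = 0.00154). In Foxp3+ T cells, where the groups overlapped, Satb1 did not pass the test. Foxo1 had the smallest difference of the genes called in CD8 T cells and its groups overlapped there, at 199, 132 and 150 CPM against 141, 73.9 and 83.0 CPM (log2 fold change -0.81, SE 0.20, adjusted p = 0.0282). That call was made in 12 of 22 alternatives. Among others it was lost without αPD-1 replicate 1 or 3 or αPD-1 + corin replicate 2 or 3 (log2 fold changes of -0.64, -0.85, -0.69 and -0.75, adjusted p = 0.137, 0.0790, 0.115 and 0.167) and with DESeq2 (adjusted p = 0.0808). Foxo1 also overlapped between the groups in CD4 T cells (mean 262 ± 88.6 against 185 ± 81.4 CPM, SD, n = 3 each) and in Foxp3+ T cells (210 ± 68.7 against 177 ± 70.9 CPM, SD, n = 3 each), and did not pass the test in either.

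**Figure D2:**
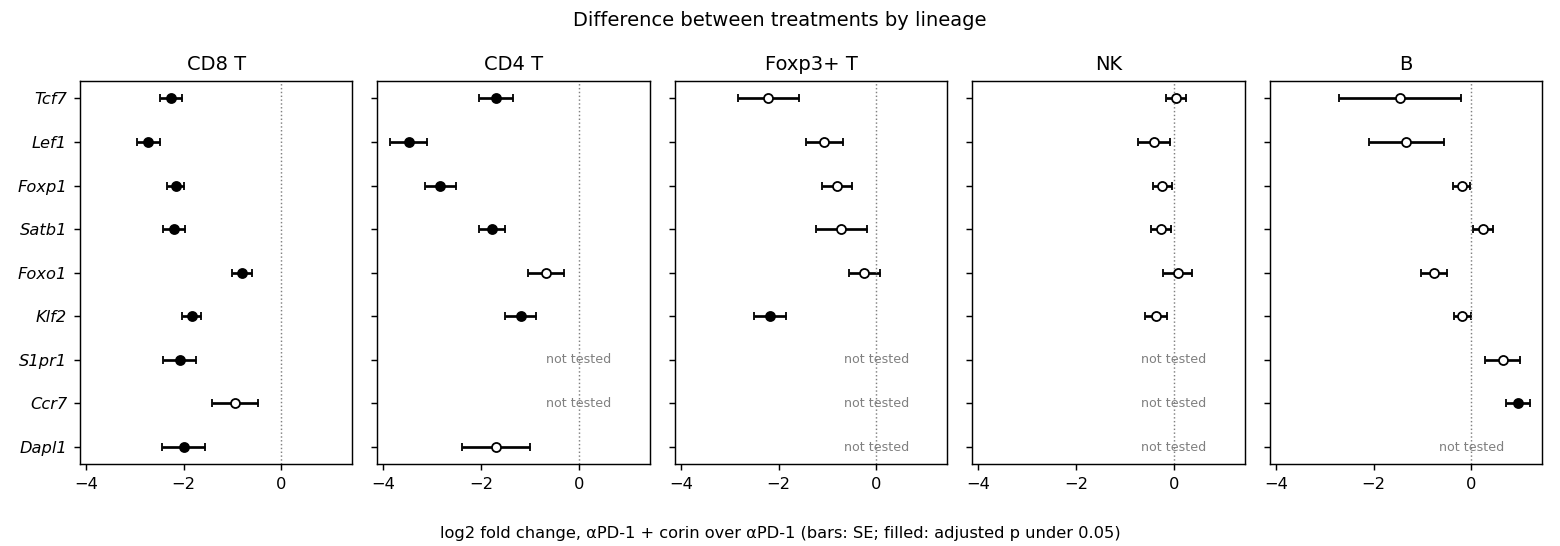
Log2 fold change of each gene, αPD-1 + corin over αPD-1, in 5 lineages, with bars of 1 SE and filled points for an adjusted p under 0.05 (edgeR). Filled points at negative values number 8 in CD8 T cells, 5 in CD4 T cells and 1 in Foxp3+ T cells, none is filled in NK cells, and Ccr7 alone is filled in B cells, at a positive value.

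Klf2, the factor upstream of egress, was lower in all 3 T cell classes. It was at 485, 380 and 290 CPM in CD8 T cells with αPD-1 and at 79.2, 109 and 106 CPM with αPD-1 + corin (log2 fold change -1.84, SE 0.19, adjusted p = 6.76e-05). The CD4 T cell levels were 613, 714 and 378 CPM against 313, 318 and 189 CPM, with the lowest αPD-1 sample close above the highest of the other group (log2 fold change -1.19, SE 0.31, adjusted p = 0.0306). This call was lost without αPD-1 replicate 1 or 2 (-1.18 and -1.001, adjusted p = 0.0919 and 0.0760) and without αPD-1 + corin replicate 2 or 3 (-1.43 and -0.97, adjusted p = 0.0542 and 0.164). In Foxp3+ T cells Klf2 was at 439, 339 and 333 CPM against 172, 68.6 and 81.5 CPM (log2 fold change -2.18, SE 0.32, adjusted p = 0.00217), and was the only member whose call was made there. Without αPD-1 + corin replicate 2, which holds 49 Foxp3+ T cells where the others of its group hold 15 and 13, the value was -1.75 with an adjusted p of 0.0534, and in T cells without a UMI of the B cell markers it was -2.12 with an adjusted p of 0.0533. With equal numbers of cells per sample it was -2.12 with an adjusted p of 0.0606, and with cells thinned to 1000 UMIs Klf2 was too low to be tested there.

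S1pr1, the egress receptor, had fewer UMIs. In CD8 T cells it was at 69.9, 34.6 and 39.7 CPM with αPD-1 and at 28.3, 9.07 and 9.55 CPM with αPD-1 + corin (log2 fold change -2.08, SE 0.35, adjusted p = 0.00286), and without αPD-1 + corin replicate 3 at a log2 fold change of -1.81 with an adjusted p of 0.0766. In CD4 T cells and Foxp3+ T cells S1pr1 was too low to be tested, and 6 and 7 UMIs were counted with αPD-1 + corin beside 70 and 33 with αPD-1. The groups did not overlap in either, at 124, 138 and 83.1 CPM against 78.2, 60.6 and 0 CPM in CD4 T cells and at 50.2, 89.5 and 98.9 CPM against 0, 27.4 and 20.4 CPM in Foxp3+ T cells. Every αPD-1 + corin sample lay below every αPD-1 sample for 12.9% of the genes tested in CD4 T cells and 7.49% in Foxp3+ T cells. Ccr7, the lymph node receptor, overlapped between the groups in CD8 T cells (71.0, 45.7 and 40.9 CPM against 45.3, 57.0 and 10.9 CPM, log2 fold change -0.95, SE 0.46, adjusted p = 0.251). Only αPD-1 + corin replicate 3 lay clearly below the αPD-1 samples, and without it the value was 0.08, whereas without αPD-1 + corin replicate 2 it was -1.88 with an adjusted p of 0.00924. Too few Ccr7 UMIs to test were counted in CD4 T cells, 2 with αPD-1 + corin and 53 with αPD-1. In T cells as a whole the Ccr7 call (log2 fold change -1.25, SE 0.32, adjusted p = 0.0155) rested on single samples, at -1.01 (adjusted p = 0.0878) once αPD-1 replicate 1 was left out and at -0.57 (adjusted p = 0.131) once αPD-1 + corin replicate 3 was.

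Dapl1 had its highest means in CD4 T and CD8 T cells. In CD8 T cells it was at 106, 89.6 and 72.0 CPM with αPD-1 and at 17.0, 54.4 and 9.55 CPM with αPD-1 + corin (log2 fold change -1.999, SE 0.44, adjusted p = 0.0145), and in CD4 T cells at 138, 170 and 75.5 CPM against 0, 106 and 0 CPM, where it did not pass the test (log2 fold change -1.69, SE 0.70, adjusted p = 0.145). All 7 Dapl1 UMIs of CD4 T cells with αPD-1 + corin came from replicate 2, whose CD8 T cells were also the highest of that group, and without replicate 2 the test in CD4 T cells was passed against samples that were all at 0 (adjusted p = 0.0225). The call in CD8 T cells was lost without any one of the αPD-1 samples (-1.80, -1.90 and -2.07, adjusted p = 0.0869, 0.0585 and 0.0547), with DESeq2 (adjusted p = 0.295) and once αPD-1 + corin replicate 3 was left out (-0.95, adjusted p = 0.125). Outside CD8 T and CD4 T cells, Foxp3+ T cells and NK cells held 1 Dapl1 UMI each and B cells 22, all with αPD-1, and mature DCs held none. In CPM, B cells were at 3.61 ± 3.13 and neutrophils at 17.3 ± 17.1 with αPD-1 (SD, n = 3 each). The neutrophil value rests on 23, 16 and 13 cells and ran from 0 to 34.3 CPM.

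Single cells held UMIs of at most 7 of the 9 genes when each was thinned to 1000 UMIs, and CD8 T cells with αPD-1 held 1.73 to 2.36 on average. In this count 46.6%, 31.2% and 30.7% of CD8 T cells had a UMI of 3 or more of the 9 genes with αPD-1, and 11.1%, 6.45% and 3.98% with αPD-1 + corin. In CD4 T cells the shares were 62.6%, 58.3% and 51.8% against 0%, 16.7% and 10.3%, the first of these from 12 cells. Neither class overlapped between the groups. Cells with no UMI of any member made up 19.8%, 33.8% and 34.0% of CD8 T cells with αPD-1 and 49.2%, 66.1% and 63.2% with αPD-1 + corin. Enough Tcf7+ CD8 T cells were held by 4 samples, the 3 of αPD-1 and αPD-1 + corin replicate 3 (36 such cells). Among CD8 T cells of these samples, Lef1, Foxp1, Satb1, Foxo1, Klf2, S1pr1 and Dapl1 were each found in a larger share of cells with a Tcf7 UMI than of cells without one, in 4 of 4 samples, and Ccr7 in 3 of 4. This did not hold throughout CD4 T cells, where only the 3 αPD-1 samples could be used: Lef1 and Foxp1 were found in the larger share in 3 of 3, Satb1, Klf2 and Ccr7 in 2 of 3, and Foxo1, S1pr1 and Dapl1 in 1 of 3. In CD8 T cells the gap was between 17.6 and 45.5 percentage points for Lef1, and for S1pr1 it was between 2.35 and 14.7. For a share of cells with a UMI, RNA free in the suspension sets a floor. Tcf7 was found in 0.159% to 0.721% of monocytes and macrophages after thinning, which should lack it (median depth between 3078 and 4714 UMIs), against 26.0% to 34.9% of T cells with αPD-1 and 9.27% to 13.0% with αPD-1 + corin (median depth between 1692 and 3412 UMIs). Without thinning these T cell shares were between 38.2% and 50.7% and between 17.5% and 19.4%. The floor was not the same in every class. In neutrophils with αPD-1 + corin the thinned Tcf7 share was between 1.90% and 7.0%, overlapping with CD8 T cells of that group (4.63% to 7.94%). Their mean Tcf7 levels were 48.9 ± 31.7 and 46.7 ± 8.08 CPM (SD, n = 3 each). The Tcf7 left in those CD8 T cells was therefore not shown to lie above the neutrophil level.

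**Figure D3:**
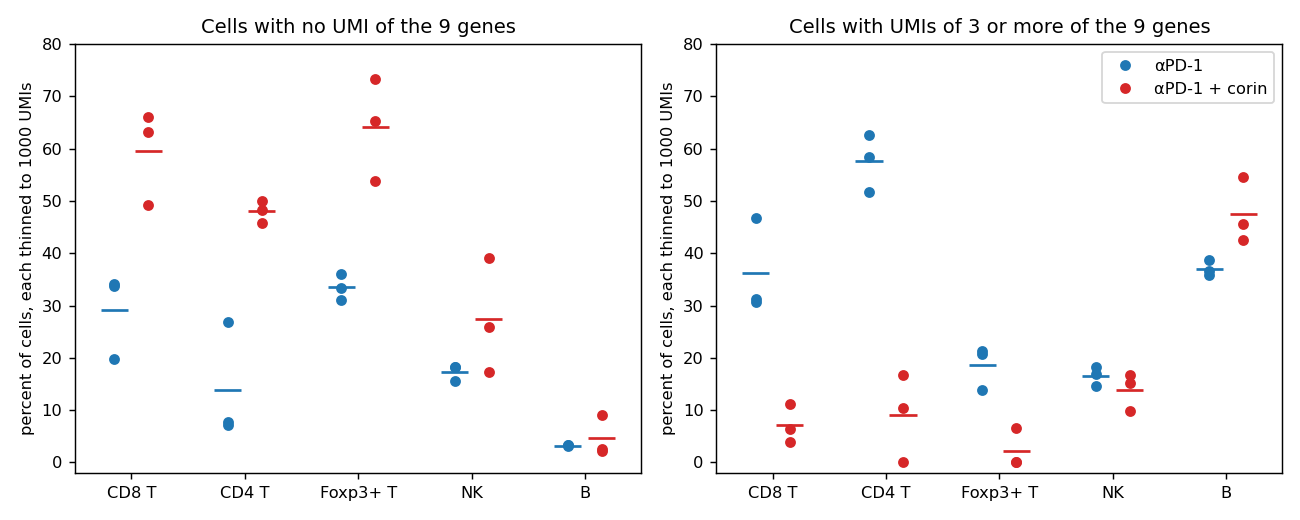
Percent of cells, each thinned to 1000 UMIs, with no UMI of the 9 genes (left) and with UMIs of 3 or more of them (right), 1 point per sample, αPD-1 in blue and αPD-1 + corin in red, with a line at the mean. In CD8 T and CD4 T cells the groups are apart in both panels, whereas in NK cells the shares with 3 or more members overlap (14.5% to 18.2% against 9.76% to 16.7%) and in B cells the αPD-1 + corin samples lie above the others (42.5% to 54.5% against 35.8% to 38.7%).

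A large part of the UMIs of the 9 genes in T cells came from 2 subclusters that held few T cells with αPD-1 + corin. Subcluster 0, whose leading genes included Dapl1, Igfbp4, Rflnb, Id3, Rasgrp2, Lef1, Tcf7, Nsg2 and S1pr1, made up 39.7%, 38.8% and 30.9% of the T cells with αPD-1 and 3.25%, 2.47% and 1.45% with αPD-1 + corin (762 and 28 cells). It held between 24.0% (Foxo1) and 75.7% (Dapl1) of the T cell UMIs of each member, and 21.9% of the T cells. Subcluster 7 made up 19.3%, 11.1% and 17.5% against 0.649%, 1.41% and 0.362% (325 and 9 cells). It held 30.2% of the Foxp1 and 24.9% of the Lef1 UMIs of T cells but 5.12% of the Klf2 and 2.99% of the Dapl1 UMIs. Its Malat1 UMIs were 24.1 times its Actb UMIs, against 2.20 times in subcluster 0, and the counts were repeated without it. Without it and subcluster 9, the other Malat1-high T cell subcluster, 9 members were still called lower in T cells and 7 in CD8 T cells.

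Among 4 other subclusters with at least 10 cells in every sample, between 1 and 5 of the 9 members lay lower with αPD-1 + corin without overlap. Subcluster 2, led by Cd7, Cxcr3 and Klra7, made up 12.6%, 14.5% and 14.5% of the T cells against 54.5%, 32.5% and 28.5%, and within it 7 of the 9 genes overlapped between the groups. Tcf7 there was at 283 ± 41.5 CPM with αPD-1 and 266 ± 90.9 CPM with αPD-1 + corin (SD, n = 3 each), and Klf2 at 661 ± 183 and 474 ± 164 CPM. Lef1 (255 ± 30.8 against 200 ± 17.3 CPM) and Foxp1 (518 ± 63.1 against 391 ± 57.6 CPM) were below without overlap, where every αPD-1 + corin sample lay below every αPD-1 sample for 7.18% of all genes with at least 10 UMIs. In subcluster 1, led by the granzyme and perforin genes Gzmc, Gzmb and Prf1, the same 2 of 9 lay below (7.11% of all genes), and Tcf7 was at 16.8 ± 7.92 and 4.68 ± 8.10 CPM. These Tcf7 levels rest on 7, 5 and 6 UMIs with αPD-1 and 0, 0 and 32 with αPD-1 + corin. In subcluster 6, led by genes of dividing cells such as Ube2c, Klf2 was the only member below (220 ± 51.9 against 91.8 ± 24.4 CPM, 7.24% of all genes). In subcluster 8, led by Foxp3, Tnfrsf4 and Ctla4, 5 of 9 lay below (8.91% of all genes), with Tcf7 at 223 ± 32.8 against 55.6 ± 12.6 CPM, Lef1 at 182 ± 17.7 against 55.3 ± 14.2 CPM, and Foxp1, Klf2 and S1pr1 the others. Its αPD-1 + corin samples held 18, 60 and 35 cells, with 2, 11 and 7 Tcf7 UMIs, 3, 10 and 5 Lef1 UMIs and 0, 2 and 4 S1pr1 UMIs. Foxp1 was at 358 ± 59.7 against 129 ± 103 CPM in subcluster 8. In the Foxp3+ T cells above, picked by a Foxp3 UMI, Foxp1, Tcf7 and Lef1 each overlapped between the groups. The subclusters were made from the same cells, so these are descriptions with no test.

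**Figure D4:**
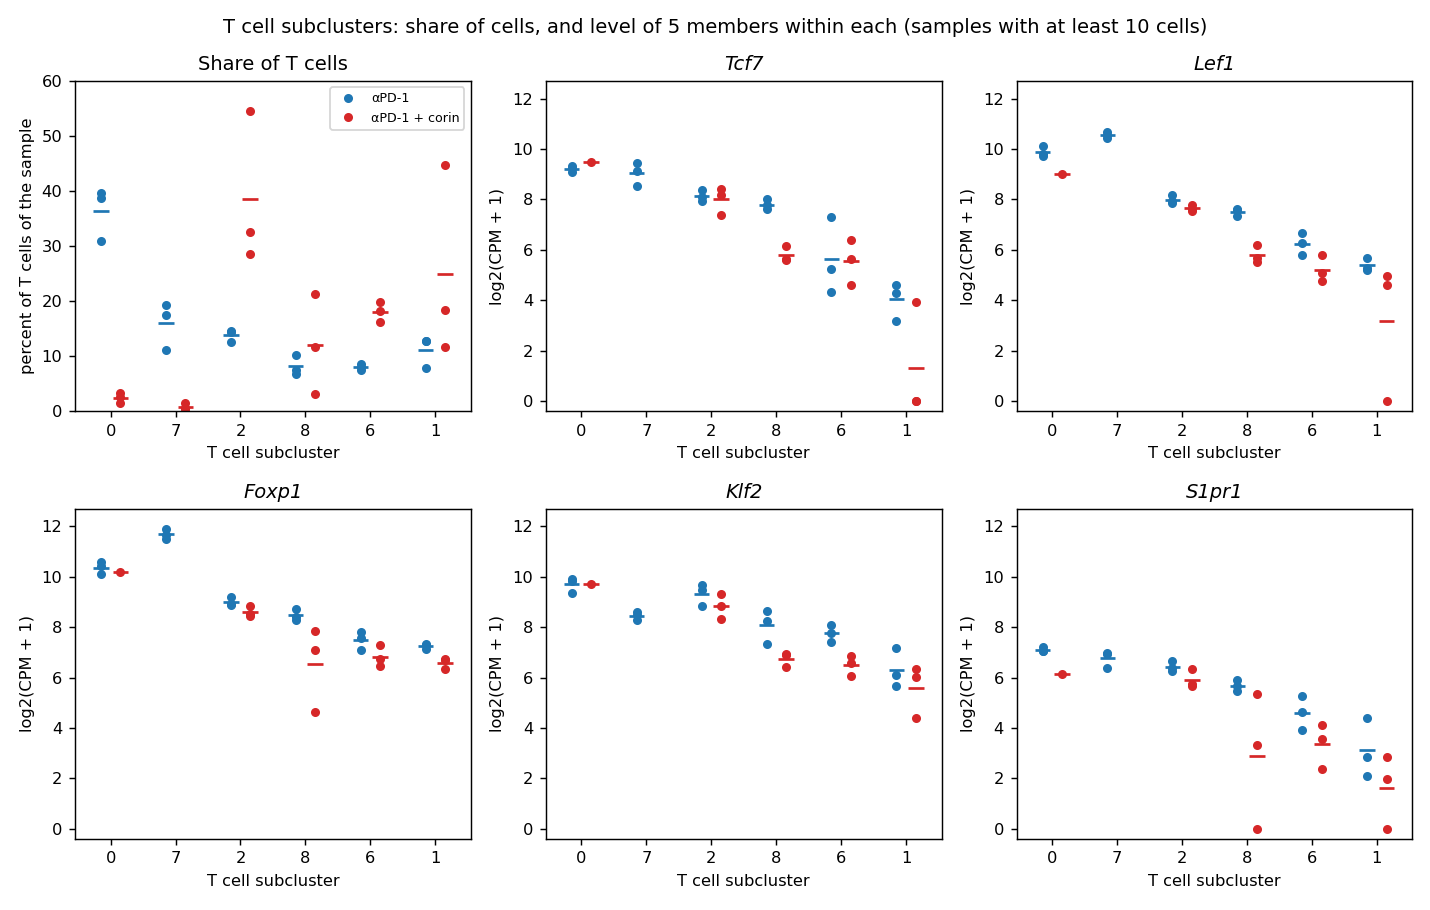
Share of the T cells of each sample in 6 T cell subclusters (first panel, percent) and level of 5 members within each (log2(CPM + 1)), 1 point per sample with at least 10 cells for the levels, αPD-1 in blue and αPD-1 + corin in red, with a line at the mean of the plotted values. Subclusters 0 and 7 hold 11.1% to 39.7% of T cells each with αPD-1 and at most 3.25% with αPD-1 + corin, while Tcf7 levels within subcluster 2 overlap between the groups and those in subcluster 8 do not.

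The T cells were also split by a list that holds none of the 9 genes. T cells without a UMI of 24 activation, inhibitory receptor and cytotoxicity genes (each cell thinned to 1000 UMIs) numbered 138, 133 and 90 with αPD-1 and 2, 11 and 2 with αPD-1 + corin, so that 1 sample of that group had at least 10 cells and entered the fit. Its spread was taken from the αPD-1 samples, so the p-values of this fit rest on 1 sample of 11 cells in that arm. In these cells 1 of the 9 genes, Lef1, was lower (1222, 965 and 1696 CPM against 267 CPM in αPD-1 + corin replicate 2, log2 fold change -2.31, SE 0.58, adjusted p = 0.00779), where 0.37% of 4589 genes were. Without αPD-1 replicate 1 that call was lost (-2.35, adjusted p = 0.213), and without αPD-1 replicate 3 Foxp1 was called as well (-1.43, adjusted p = 0.000872). Tcf7 was at 664, 538 and 675 CPM against 582 CPM, Ccr7 at 132, 120 and 105 against 121 CPM and Dapl1 at 279, 290 and 144 against 194 CPM, each within the range of the αPD-1 samples. In T cells with at least 2 such UMIs, 8 of 9 were lower, all but Ccr7, where 5.03% of 9128 genes were (median log2 fold change -1.45 over the members). Tcf7 there was at 266, 171 and 154 CPM against 103, 59.9 and 67.9 CPM (log2 fold change -1.40, SE 0.21, adjusted p = 0.00180).

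Outside T cells the same genes did not move together. NK cells carried Tcf7 at 265, 227 and 235 CPM with αPD-1 and at 232, 293 and 208 CPM with αPD-1 + corin. With αPD-1 their Tcf7 level overlapped with that of CD8 T cells, and with αPD-1 + corin it was the highest mean of any cell class, though CD4 T cells overlapped with it. None of the 6 members tested passed the test in NK cells by edgeR or DESeq2, and none had an unadjusted p under 0.05, where 0.548% of 2919 genes were called lower and 0.377% higher. Foxp1 (466 ± 49.3 against 379 ± 18.2 CPM) and Satb1 (361 ± 28.0 against 279 ± 41.2 CPM, SD, n = 3 each) did not overlap between the groups, where every αPD-1 + corin sample lay below every αPD-1 sample for 8.91% of the genes tested. Klf2 in NK cells was at 462, 526 and 494 CPM against 199, 280 and 530 CPM, so that αPD-1 + corin replicate 3 lay above every αPD-1 sample and the other 2 below. Without that replicate Klf2 was lower (log2 fold change -0.93, adjusted p = 0.0234), and with it the value was -0.37 (SE 0.23, adjusted p = 0.601). The treatment difference in NK cells was higher than in T cells for 6 of the 9 genes (interaction test, 1.37% of all genes called), by 1.76 for Tcf7 (SE 0.25, adjusted p = 2.80e-07), 2.28 for Lef1, 1.97 for Foxp1, 1.77 for Satb1, 1.21 for Foxo1 and 0.90 for Klf2 on the log2 scale. Leaving out 1 sample gave between 4 and 6. These tests, like those of B cells and mature DCs below, set a lineage against the sum over all T cells. That sum cannot tell fewer cells of a T cell class from less RNA of a gene per cell.

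B cells, of which 47, 48 and 11 were left with αPD-1 + corin against 786, 707 and 1077, had the highest mean Foxp1, Klf2 and Foxo1 levels of the lymphocytes, though Foxo1 overlapped with CD4 T cells in both groups. Foxp1 was at 1998, 1885 and 2086 CPM with αPD-1 and at 1801, 1713 and 2046 CPM with αPD-1 + corin, and Klf2 at 1042, 1451 and 1227 CPM against 1094, 1049 and 1469 CPM, overlapping for both. None of 8 members tested was lower in B cells by edgeR or DESeq2, with Foxo1 at an unadjusted p under 0.05, where 1.5% of 7815 genes were. Ccr7 was higher with αPD-1 + corin, at 322, 396 and 210 CPM against 196, 174 and 153 CPM without overlap (log2 fold change 0.95, SE 0.25, adjusted p = 0.0134), where 0.576% of all genes were called higher. The Ccr7 call was lost without αPD-1 + corin replicate 1 or 2 (0.92 and 0.52, adjusted p = 0.142 and 0.569), and clustering at resolution 1.2 turned its direction (log2 fold change -0.32). At that resolution a cluster of 1009 cells led by Chil3, Gm9733 and Hspa1b was counted among the B cells, and 5 members were called lower. S1pr1 was at 96.4, 81.0 and 81.9 CPM against 145, 128 and 157 CPM, without overlap and without passing the test (log2 fold change 0.64, SE 0.36, adjusted p = 0.432). Of the 8 members tested 4 did not overlap between the groups in B cells, Lef1 and Foxo1 below and S1pr1 and Ccr7 above, where 27.3% of all genes did not. The treatment difference in B cells was higher than in T cells for 4 members (interaction test, 1.35% of all genes called), by 1.66 for Foxp1, 1.85 for Satb1, 1.96 for S1pr1 and 1.49 for Ccr7 on the log2 scale, and for 2 of the 9 without αPD-1 + corin replicate 2. Tcf7 was at 16.3 ± 6.05 CPM in B cells with αPD-1 (SD, n = 3), and 1 Tcf7 UMI was counted with αPD-1 + corin.

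Mature DCs, the migratory cells that carry antigen to lymph nodes, had by far the most Ccr7. It was at 1649 and 763 CPM in αPD-1 replicates 1 and 3 and at 2034 and 2170 CPM in αPD-1 + corin replicates 1 and 2, and the other 2 samples had under 10 such cells and were not used. In this fit of 2 against 2 samples none of 4 members tested passed the test by edgeR or DESeq2, with Ccr7 at an unadjusted p under 0.05 (log2 fold change 0.73, SE 0.29, adjusted p = 0.401), where 0.448% of 2231 genes were called lower and 0.403% higher. Without αPD-1 replicate 1 the Ccr7 value was 1.47 with an adjusted p of 4.75e-06, but that arm was then 1 sample of 20 cells whose spread was taken from the other group. The treatment difference was higher in mature DCs than in T cells for Foxp1 (by 2.27, SE 0.35, adjusted p = 0.00199) and Ccr7 (by 1.64, SE 0.31, adjusted p = 0.0127), 2 of 9 members, where 0.656% of all genes were called, and for 1 without αPD-1 + corin replicate 2.

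The order of the levels across cell classes differed between the genes. In the αPD-1 samples Tcf7, Lef1, Satb1, S1pr1 and Dapl1 had their highest mean in CD4 T cells. For Lef1 the next class, CD8 T cells, lay below without overlap (335 ± 70.8 against 716 ± 70.7 CPM, SD, n = 3 each), whereas for S1pr1 endothelial cells overlapped with CD4 T cells (110 ± 14.1 against 115 ± 28.7 CPM). In the αPD-1 + corin samples S1pr1 was highest in endothelial cells (184 ± 22.6 CPM) and next in B cells (143 ± 14.6 CPM), and Satb1 was highest in B cells (538 ± 115 CPM), each without overlap with the class below. Klf2 in neutrophils overlapped with B cells with αPD-1 (1041 ± 367 against 1240 ± 205 CPM) and not with αPD-1 + corin (406 ± 25.3 against 1204 ± 231 CPM). Neutrophils numbered 23, 16 and 13 with αPD-1 and 635, 1199 and 100 with αPD-1 + corin.

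Other genes of the same pathways were counted in lists. Of 38 other genes of naive and resting T cells, 27 were lower and none higher in T cells (median log2 fold change -0.93), and in CD8 T cells 21 of 37 tested were lower, where 4.84% of all genes were. The named ones were Igfbp4, which encodes an insulin-like growth factor binding protein (63.9 ± 20.1 against 14.7 ± 16.4 CPM, log2 fold change -3.30, SE 0.51), Rflnb (-3.21, SE 0.27) and Tdrp (-2.85, SE 0.35). In Foxp3+ T cells 1 of 18 tested was lower, where 0.473% of all genes were. Of 26 homing and egress genes tested in T cells, 6 were lower and 3 higher (median 0.17), among them the integrin gene Itgae (-2.11, SE 0.26), the integrin activator Rasgrp2 (-1.98, SE 0.30) and Ripor2 (-1.68, SE 0.19) on the lower side and the inflammatory chemokine receptors Ccr2 (1.00, SE 0.28) and Cxcr6 (0.57, SE 0.18) and the signalling regulator Rgs1 (0.46, SE 0.14) on the higher side. Of 16 TCF/LEF cofactors and Wnt pathway genes, 6 were lower in T cells (median -0.23), but 1 of 12 in CD8 T cells, none of 5 in CD4 T and none of 4 in Foxp3+ T cells. Those named in T cells were the corepressor Tle4 at -0.99 (SE 0.14), and Apc and Gsk3b, members of the β-catenin destruction complex, at -0.74 (SE 0.18) and -0.46 (SE 0.13). Of 20 effector factors, 5 were higher and none lower in T cells (median 0.25), among them Bhlhe40 (1.02, SE 0.14), Id2 (0.79, SE 0.15) and Prdm1 (0.63, SE 0.16), which promote effector and tissue-resident states. Among 13 tested in CD4 T cells 4 were higher and 1 lower, where 4.3% of all genes were called higher and 4.56% lower. All named genes had an adjusted p between 9.88e-06 and 0.0374 in T cells. In T cells 12.1% of all genes were called lower and 7.22% higher.

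The gene most like each member across 34 sums of CD8 T, CD4 T, Foxp3+ T, NK, B and mature DC cells was Gm2682 for Tcf7 (Pearson r of log2 CPM = 0.87), Utrn for Lef1 (0.84), Bach2 for Foxp1 (0.90), Ripor2 for Satb1 (0.88), Ifi213 for Foxo1 (0.82), Treml2 for Klf2 (0.82), Rasgrp2 for S1pr1 (0.83), Ctss for Ccr7 (0.88) and Tdrp for Dapl1 (0.93), out of 8457 genes. The genes nearest to the mean of the 9 profiles were Scml4, Maml2, Tet3, Hivep2 and Pik3ip1, with r between 0.78 and 0.83. The 34 points share samples and lineages, so these values describe the pattern only.

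Marker lists of other cell types moved with the groups in the T cell sums. The summed level of the 10 B cell markers in T cells was between 155 and 291 CPM with αPD-1 and between 20.8 and 66.7 CPM with αPD-1 + corin, that of 12 monocyte and macrophage markers between 728 and 860 CPM against 1195 and 1318 CPM, that of 8 neutrophil markers between 45.3 and 58.7 CPM against 106 and 495 CPM, and that of 10 NK markers between 529 and 736 CPM against 1001 and 1087 CPM. Immediate early and heat shock genes, 12 in all, summed to between 6947 and 9800 CPM against 4731 and 6895 CPM. In T cells without a UMI of the B cell markers, 9 members were lower, as in all T cells. The NK list holds genes that T cells also make, such as Prf1, a leading gene of subcluster 1. With αPD-1 it summed to between 633 and 833 CPM in CD8 T cells and between 128 and 213 CPM in CD4 T cells. The monocyte and macrophage list summed to between 977 and 1125 CPM and between 125 and 151 CPM in the same cells. Which cells made this RNA was not tested, nor was the part of these lists in the results.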

How the data were processed

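CD45+ cells of 6 tumor samples (3 per group) were measured by droplet single-cell RNA sequencing. The deposited files hold raw UMI counts per gene and barcode, which the authors made with Cell Ranger 8.0 on GRCm39, and Seurat 5.0.11 is named in the submitters' processing notes. Cells had to show between 600 and 4000 genes and no more than 10% mitochondrial UMIs, and the highest Scrublet scores were removed as doublets (scanpy 1.11.5), 0.4% per 1000 barcodes. Cells were clustered with Seurat 5.3.0 and sctransform 0.4.2 on 3000 variable genes (20 components, resolution 0.8), without the 9 genes, the lineage markers and the activation genes, and T, NK and DC clusters were clustered again. A cluster took a lineage's name with at least 3 of its markers (in 10% of cells, 1.5 times the mean of the other clusters). This naming rule was set after the clusters were seen. T clusters with markers of another lineage were left out as mixed. They held 232, 231 and 249 cells in αPD-1 replicates 1 to 3 and 112, 143 and 511 in αPD-1 + corin replicates 1 to 3. Clusters with both T and B cell markers were also left out, with 600, 341 and 530 cells against 9, 13 and 6. The alternative that counted mixed T clusters did not include these T and B clusters. UMI counts were summed per sample and lineage (samples with at least 10 cells) and tested with edgeR 4.0.16 (quasi-likelihood, TMM, filterByExpr, Benjamini-Hochberg over all genes tested, threshold 0.05). The SE is the log2 fold change divided by the square root of F. Comparisons between lineages used an interaction term with the sample as a block. Alternatives included DESeq2 1.42.0, other filters, clusterings and each sample left out. On simulated counts with 4-fold changes, the test called 186 of 189 changed genes in T cells, 170 of 171 in CD8 T, 151 of 161 in CD4 T and 173 of 182 in Foxp3+ T cells, with 9, 8, 3 and 8 false calls. The simulation gave every gene and lineage the same dispersion and changed only genes above a minimum number of UMIs. It therefore does not describe the power for genes of few UMIs or of larger spread. The members, gene lists and tests were chosen with earlier results of these data known. From each list up to 3 called genes with the largest rise and 3 with the largest fall in T cells were named, if their groups did not overlap and one of them reached 20 CPM. The gene most like each member had the highest Pearson correlation of log2 CPM (prior count 2). Shares and floors come from counts of captured molecules. They carry counting error, the spread between samples and RNA free in the suspension.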

Additional observations from a re-analysis of the deposited data

Results flagged for a closer look

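The treatment difference (αPD-1 + corin over αPD-1) of 14 gene and lineage pairs differed between lineages by the interaction test in edgeR, and the values that follow are differences of log2 fold changes, the second lineage minus the first. NK cells minus T cells gave 1.76 for Tcf7, 2.28 for Lef1, 1.97 for Foxp1, 1.77 for Satb1, 1.21 for Foxo1 and 0.90 for Klf2. B cells minus T cells gave 1.66 for Foxp1, 1.85 for Satb1, 1.96 for S1pr1 and 1.49 for Ccr7. Mature DCs minus T cells, with 4 samples, gave 2.27 for Foxp1 and 1.64 for Ccr7. In these 3 comparisons T cells are the sum over all T cells, which cannot tell fewer cells of a class from less RNA per cell. Foxp3+ T cells minus CD8 T cells gave 1.35 for Foxp1, and Foxp3+ T cells minus CD4 T cells gave 2.06 for Foxp1. With 3 samples per group, single samples were not tested as outliers.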

How the results depend on the processing

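Of the counts of members called, 178 values under the alternatives stayed within 1.5 times the main count and 36 did not, and of the values of single genes 1119 kept direction and call, 58 lost the call, 27 gained it and 32 changed sign. Leaving out 1 sample gave 8 to 9 members in T cells, 5 to 8 in CD8 T, 3 to 5 in CD4 T, 0 to 2 in Foxp3+ T, 0 to 1 in NK, B and mature DC cells, 0 to 2 in T cells without activation UMIs and 6 to 8 in those with them. In the interaction tests it gave 4 to 6 for NK cells and T cells, 2 to 5 for B cells and T cells, 1 to 3 for mature DCs and T cells, and 0 to 1 for Foxp3+ T cells with either CD8 T or CD4 T cells. With equal numbers of cells per sample the counts were 5 in CD8 T, 3 in CD4 T and 0 in Foxp3+ T cells and in T cells without activation UMIs. The last 2 were also 0 with cells thinned to 1000 UMIs, and Foxp3+ T cells had 0 without B cell marker UMIs. Without a filter on low counts there were 2 in Foxp3+ T cells, 1 in mature DCs and 0 in the interaction of CD8 T and Foxp3+ T cells. Mature DCs had 1 with LogNormalize. T cells without activation UMIs had 2 at resolutions 0.4 and 1.2 and with mixed T clusters counted, an alternative chosen after seeing the data, as were leaving out Malat1-high clusters and the alternatives of the interaction tests. B cells had 5 at resolution 1.2. The cause was not tested.

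Replicate numbers did not pair the samples (correlations of deviations 0.0919, -0.0167 and -0.0589 for numbers 1 to 3). With the replicate number as a block, B cells had 0 members called (Ccr7 0.86, adjusted p = 0.177).

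Signs changed as follows, in log2 fold changes. With 1 sample left out, Ccr7 in CD8 T cells ranged from -1.88 (without αPD-1 + corin replicate 2) to 0.077 (without αPD-1 + corin replicate 3), and Foxo1 in Foxp3+ T cells from -0.377 to 0.0711. In NK cells Tcf7 ranged from -0.0993 to 0.216 and Foxo1 from -0.160 to 0.268, both lowest without αPD-1 + corin replicate 2, and Foxo1 was -0.0701 without αPD-1 replicate 3. In B cells Satb1 ranged from -0.0907 to 0.355 and Klf2 from -0.303 to 0.0404. In mature DCs Foxp1 ranged from -0.349 to 0.204, Foxo1 from -0.706 to 2.08 and Klf2 from -1.12 to 0.767, and Ccr7 in T cells without activation UMIs from -0.134 to 0.0232. Under other settings Tcf7 in NK cells was -0.0451 with LogNormalize and -0.0641 at resolution 1.2. In B cells at resolution 1.2 Tcf7 was 0.0183, Satb1 -0.975, S1pr1 -1.215 and Ccr7 -0.315. In mature DCs Foxo1 was 0.0365 with DESeq2, 0.189 without a filter and 0.178 with no doublet removal. Foxp1 there was 0.147 without a filter, 0.152 with LogNormalize, 0.129 with no doublet removal, 0.0443 with no upper limit on genes, 0.0672 at 5% mitochondrial UMIs and 0.0315 at resolution 1.2, and Klf2 was 1.16 with LogNormalize and 0.0635 at resolution 0.4. In T cells without activation UMIs Ccr7 was 0.03 with DESeq2, 0.0162 with RLE, 0.232 with thinning and 0.316 with mixed T clusters counted. Few cells and UMIs limit CD4 T, Foxp3+ T and mature DC values with αPD-1 + corin.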
